A study of Danio rerio with 12 samples.

Results

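Amino acid transporter genes were followed through livers of adult zebrafish, as the rows whose symbol places them in the solute carrier families SLC1, SLC7, SLC38 and SLC43. This rule on names alone took 50 of the 32520 genes of the deposited table, with 13 in SLC1, 18 in SLC7, 13 in SLC38 and 6 in SLC43. The gene slc7a6os is named for its place beside slc7a6 and is not a transporter, the human counterpart of the slc43a3 genes carries purine nucleobases, and the row written SLC7A1 is described as slc7a1b in RefSeq. All of these were kept, and counts and medians of transporter genes below include slc7a6os and the slc43a3 genes. The livers came from wild-type TU zebrafish aged 4 months, and RNA sequencing gave 12 libraries in 4 groups of 3. Males and females were kept for 28 days in water with bisphenol AF (BPAF), a fluorinated relative of bisphenol A, at 10 µg/L, or in the solvent control with dimethyl sulfoxide (DMSO) at 0.0001%. The labels state the DMSO level of control fish and not of exposed fish, so a solvent difference and BPAF cannot be told apart. The labels do not say whether libraries stand for single animals or pools, and p-values therefore measure the spread of these libraries alone, part of which may be technical.

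The liver takes amino acids from portal blood, breaks them down, builds plasma proteins from them and returns some of them to the circulation. In mammals, members of SLC38 bring in glutamine, alanine and other neutral amino acids with sodium, SLC1 holds the glutamate and aspartate carriers, and SLC43 holds facilitative carriers of leucine and similar amino acids. SLC7 has a branch of cationic carriers for arginine and lysine and a branch of light chains, exchangers that reach the cell surface only when bound to a heavy chain of the SLC3 family. The roles given here come from human and rodent work, and those of zebrafish copies may differ.

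Levels are TPM, transcript abundances scaled for gene length and library total. The genes listed in each library summed to between 978504.61 and 992375.41 TPM, and sequencing depth is unknown. Between 9108 and 12313 genes reached 1 TPM in the male libraries and between 7007 and 9217 in the female ones. The liver label was checked with 15 hepatocyte markers, whose summed level was 235000 to 305000 TPM in males and 80200 to 108000 TPM in females. Leukocyte markers summed to 334 to 762 TPM in males and 112 to 303 TPM in females, and bile duct markers to 526 to 922 TPM and 168 to 302 TPM, and the part of such cells in the sex differences was not tested. In bulk tissue, fewer cells of a type and less RNA per cell cannot be told apart. Since TPM are shares of a library, more RNA of other genes cannot be told apart from these either. Of the 50 genes, 26 reached 1 TPM in at least 3 libraries and were tested, with 3 of SLC1, 9 of SLC7, 9 of SLC38 and 5 of SLC43 among them. Tests used limma on log2(TPM + 1), and p-values were adjusted by the Benjamini-Hochberg method over the 11389 genes that passed this filter.

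A few carriers held most of the transporter RNA. The glutamate and aspartate carrier gene slc1a3a, whose mammalian counterpart is best known from astroglia, had a mean level of 51.8 TPM over the 12 libraries. It lay between 24.08 and 70.58 TPM in males and between 45.15 and 57.91 TPM in females. The system A gene slc38a4, a sodium-coupled carrier enriched in mammalian liver, followed at 47.1 TPM, and the cationic carrier gene slc7a2, which also serves mammalian liver, at 22.0 TPM. Below these stood slc38a3b at 10.6 TPM, slc43a1b at 9.38 TPM, slc43a3a at 9.33 TPM, slc38a2 at 7.84 TPM, slc7a6os at 5.33 TPM, slc43a2b at 3.54 TPM and slc43a3b at 3.39 TPM. Neighbours in this order were often no further apart than their spread. For example, slc38a4 ranged from 14.98 to 92.34 TPM, across the whole range of slc1a3a. The level of slc43a3a varied between libraries of a group, with 9.44, 13.81 and 17.40 TPM in male controls and 34.28, 8.06 and 0.31 TPM in exposed males. In females it was at 2.53, 0.18 and 6.10 TPM in controls and at 0.13, 8.40 and 11.28 TPM after exposure, so that both low and high libraries occurred within 3 of the 4 groups.

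**Figure D1:**
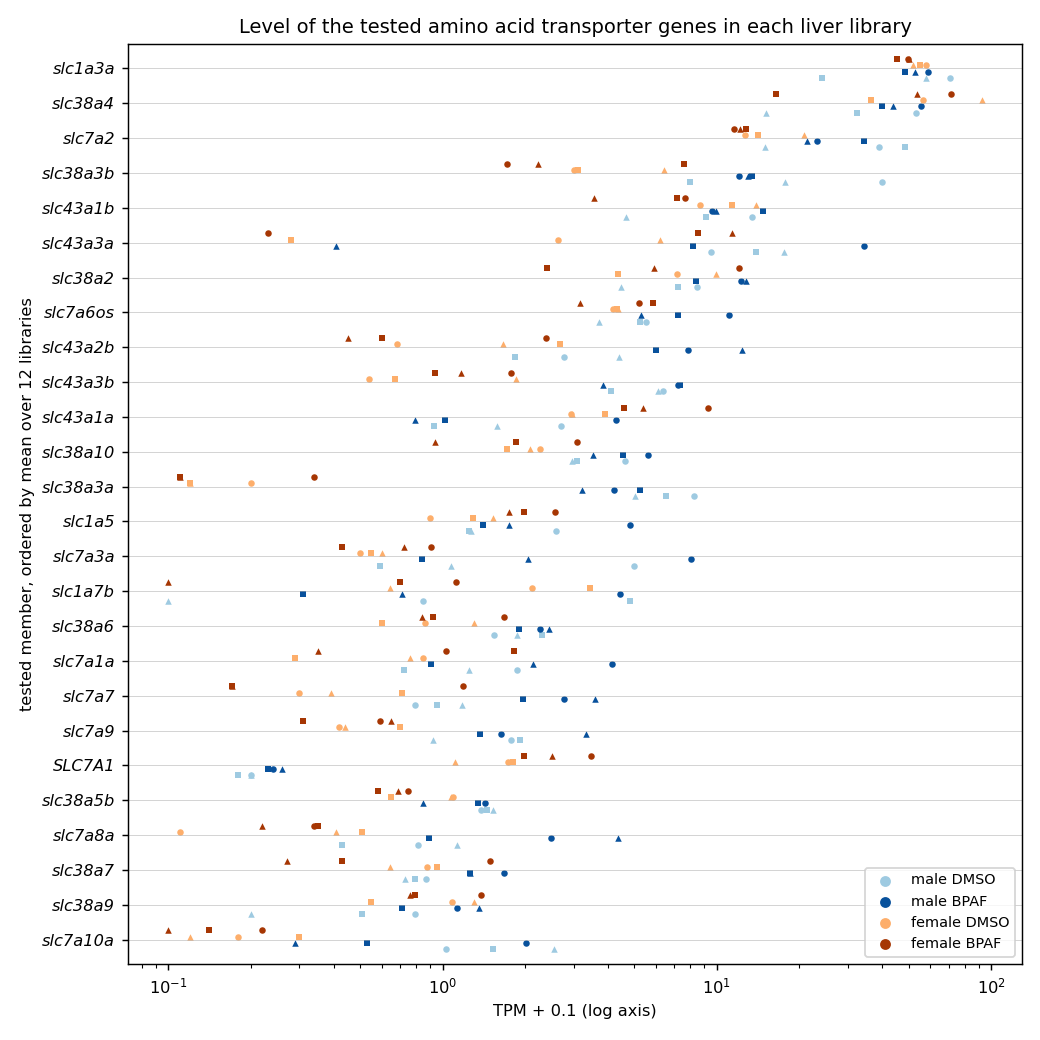
Level of each tested gene in the 12 libraries, as TPM + 0.1 on a log axis, with points coloured by sex and treatment and circles, squares and triangles for libraries 1, 2 and 3 of a group. The genes slc1a3a, slc38a4 and slc7a2 are at the high end, and the female points of slc38a3a lie far below the male ones.

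Summed over all 50 genes, the level was 213 ± 63.0 TPM (SD, n = 3) in male controls, 236 ± 42.8 TPM in exposed males, 181 ± 38.8 TPM in female controls and 159 ± 35.8 TPM in exposed females. The sums were not tested.

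The first comparison asked how control females differed from control males. The system N gene slc38a3a (ENSDARG00000027065), whose mammalian counterpart SNAT3 moves glutamine, histidine and asparagine in and out of hepatocytes, was far lower in females. It stood at 8.14, 6.44 and 4.91 TPM in male controls and at 0.10, 0.02 and 0.02 TPM in female controls. Exposed males had 4.13, 5.15 and 3.13 TPM and exposed females had 0.24, 0.01 and 0.01 TPM, so the 6 male libraries were above the 6 female ones. The difference between control females and control males was -2.82 ± 0.233 (SE) on the log2(TPM + 1) scale, with an adjusted p of 3.6e-05 in limma. The mean TPM of male controls was 139-fold that of female controls, a ratio that rests on female values close to 0.

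Its paralogue slc38a3b was the more abundant copy and was lower in females too. Male controls had 39.97, 7.87 and 17.66 TPM, and female controls had 2.90, 3.01 and 6.32 TPM. Exposed males had 11.92, 13.36 and 12.92 TPM, while exposed females had 1.62, 7.50 and 2.13 TPM. The highest female library, at 7.50 TPM, was just under the lowest male library, at 7.87 TPM. In controls the difference was -1.96 ± 0.548 with an adjusted p of 0.0269 in limma. This call was lost without male control 1, female control 1 or female control 2, with adjusted p-values of 0.0933, 0.0948 and 0.071, and it depended on scaling as described further on. The sources used here do not say how reads were shared between such copies or whether counting used the strand.

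Among the light chains, slc7a10a fell in control females. Its human counterpart Asc-1 exchanges small neutral amino acids such as glycine and D-serine. Male controls stood at 0.93, 1.42 and 2.45 TPM, and female controls at 0.08, 0.20 and 0.02 TPM. After exposure, males had 1.92, 0.43 and 0.19 TPM and females had 0.12, 0.04 and 0.00 TPM, so the lowest exposed male overlapped with the highest control female. The difference in controls was -1.20 ± 0.32 with an adjusted p of 0.0222 in limma. Without female control 1 or female control 3 the adjusted p was 0.0735 or 0.0607.

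The nucleobase carrier gene slc43a3b fell as well. Its levels were 6.28, 4.02 and 5.98 TPM in male controls and 0.44, 0.57 and 1.75 TPM in female controls. Exposed males had 7.10, 7.23 and 3.74 TPM and exposed females had 1.68, 0.84 and 1.07 TPM, and no female library reached a male one. In controls the difference was -1.79 ± 0.321 with an adjusted p of 0.00474 in limma.

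One gene went the other way. SLC7A1, described as slc7a1b, is a copy of the cationic carrier CAT1, which supplies arginine and lysine to many mammalian cells but is scarce in the adult rodent liver. It stood at 0.10, 0.08 and 0.10 TPM in male controls and 1.63, 1.71 and 1.01 TPM in female controls. Exposed males had 0.14, 0.13 and 0.16 TPM, whereas exposed females had 3.38, 1.88 and 2.41 TPM. The sexes did not overlap, and the difference in controls was 1.15 ± 0.212 with an adjusted p of 0.00502 in limma. A list of ovary and germ cell markers summed to 121, 51.7 and 11.8 TPM in the control females and to 153, 3.26 and 11.0 TPM in the exposed females, against 0.41 to 7.82 TPM in males. SLC7A1 was highest, at 3.38 TPM, in the exposed female with the highest ovary and germ cell sum, 153 TPM. It was at 1.88 TPM in the exposed female whose sum was 3.26 TPM, and that sum was inside the male range. The part of such cells in the difference was not tested.

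**Figure D2:**
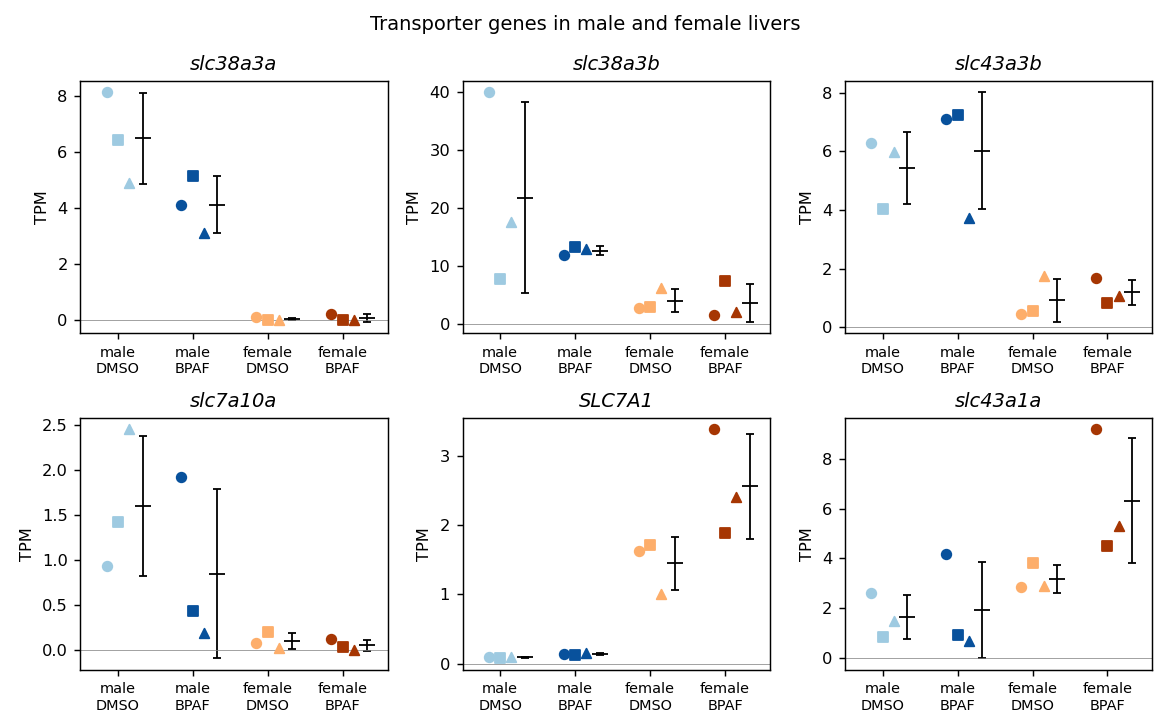
TPM of 6 transporter genes by sex and treatment, with circles, squares and triangles for libraries 1, 2 and 3 of a group and black bars for the mean ± SD (n = 3). For slc38a3a, slc38a3b, slc43a3b and SLC7A1 no female library overlaps with a male library, while slc7a10a and slc43a1a overlap between the sexes.

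Together, 5 of the 26 tested genes passed in this comparison, 4 lower and 1 higher in females. Of these, slc38a3a and slc7a10a reached 1 TPM in male libraries alone and SLC7A1 in female libraries alone. They thus entered the tests only through the sex in which they were high, which favours genes with a sex difference. Among all tested genes 23.3% passed, with 21.2% lower and 2.1% higher, so the count of transporter genes was near the background. Ranges of 3 control females and 3 control males did not overlap for 12 of the 26, with 2 higher and 10 lower, while 4.72% of all tested genes were higher and 40.8% lower in this way. The median difference was -0.45 over the transporter genes and -0.52 over all tested genes.

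Averaging over treatment brought 15 of the 26 genes past the threshold, 13 lower and 2 higher in females, again near the 59.4% of all tested genes, of which 55.4% were lower and 3.94% higher. Among the lower ones, slc7a9, slc7a8a, slc7a3a and slc38a5b also reached 1 TPM in male libraries alone. The 6 females and 6 males did not overlap for 5 of the 26 transporter genes and for 29.3% of all genes. The large neutral amino acid carrier gene slc43a1a, a copy of human LAT3, was the second gene that was higher in females. It had 2.61, 0.83 and 1.48 TPM in male controls and 2.83, 3.81 and 2.87 TPM in female controls. In exposed males it had 4.17, 0.92 and 0.69 TPM, and in exposed females 9.20, 4.49 and 5.29 TPM. The 3 exposed females were above every male, and the control females were above every male but exposed male 1. The averaged difference was 1.09 ± 0.297 with an adjusted p of 0.00905 in limma. In the order of these libraries, the ovary and germ cell sum was 121, 51.7 and 11.8 TPM in control females and 153, 3.26 and 11.0 TPM in exposed females. The library with 153 TPM thus had the highest slc43a1a level and the library with 121 TPM the lowest of the 6 females, and the part of such cells was not tested.

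The lower genes included 3 light chains besides slc7a10a. For slc7a7 the lowest, median and highest levels were 0.69, 1.47 and 3.50 TPM in the 6 males and 0.07, 0.245 and 1.09 TPM in the 6 females. For slc7a8a they were 0.33, 0.91 and 4.26 TPM in males and 0.01, 0.245 and 0.41 TPM in females. For slc7a9 they were 0.82, 1.60 and 3.22 TPM in males and 0.21, 0.415 and 0.60 TPM in females, and of these 3 genes this was the one without overlap. In humans slc7a7 encodes the exporter of cationic amino acids that is defective in lysinuric protein intolerance, slc7a8 encodes LAT2, and slc7a9 the cystine carrier that is mutated in cystinuria. Their averaged differences were -0.95 ± 0.205, -0.92 ± 0.241 and -0.90 ± 0.193, with adjusted p-values of 0.00266, 0.00723 and 0.00259 in limma. The leucine carrier gene slc43a2b had 1.74, 5.11 and 12.27 TPM in males and 0.35, 1.07 and 2.57 TPM in females as lowest, median and highest, with overlap. Its difference was -1.47 ± 0.299 with an adjusted p of 0.00196 in limma. Markers of intestine epithelium, where mammals use several of these genes, summed to 17.8 to 4840 TPM in males and 5.07 to 56.3 TPM in females. Of the 8 tested markers 7 were lower in females in TPM, against 55.4% of all tested genes. After either scaling 2 were lower, against 14.8% of all after trimmed-mean scaling and 14.1% after quantile normalization. The marker lct was at 0 in all 3 exposed females. The part of such cells in these differences was not tested.

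Of the cationic carriers, slc7a2 had a male range of 14.88 to 48.29 TPM with a median of 28.7 TPM, and a female range of 11.40 to 20.66 TPM with a median of 12.6 TPM. Its averaged difference was -0.99 ± 0.277 with an adjusted p of 0.0101 in limma, and the sexes overlapped. slc7a3a, another cationic carrier gene, was at 0.49 to 7.92 TPM in males and 0.33 to 0.81 TPM in females, with a difference of -1.01 ± 0.402 and an adjusted p of 0.0476 in limma. In 6 males and 6 females the median level was 1.98 and 0.79 TPM for slc38a6, 3.93 and 1.87 TPM for slc38a10 and 1.31 and 0.62 TPM for slc38a5b, with overlap for each. These last lower genes, all of SLC38, had differences of -0.63 ± 0.166 for slc38a6, -0.79 ± 0.21 for slc38a10 and -0.39 ± 0.141 for the glutamine carrier gene slc38a5b, with adjusted p-values of 0.00768, 0.00785 and 0.032 in limma. The averaged difference was -2.52 ± 0.165 for slc38a3a, -1.85 ± 0.388 for slc38a3b, -1.72 ± 0.227 for slc43a3b, -0.95 ± 0.227 for slc7a10a and 1.38 ± 0.15 for SLC7A1.

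Which transporter genes passed between the sexes depended on scaling. Over all tested genes the median averaged difference was -0.66, and it became -0.06 after trimmed-mean scaling and -0.03 after quantile normalization. Under trimmed-mean scaling 3 of the 26 transporter genes were lower in females and 5 higher, against 13 lower and 2 higher in TPM, and the background was 14.8% lower and 12.3% higher. The 3 lower genes were slc38a3a, slc43a3b and slc7a10a. Quantile normalization gave 4 lower, with slc7a7 added, and 5 higher, with a background of 14.1% lower and 13.4% higher. In controls alone, 3 were lower and 2 higher under either scaling. The background there was 5.01% lower and 3.79% higher after trimmed-mean scaling, and 3.93% lower and 4.23% higher after quantile normalization.

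The genes slc38a4, slc1a3a and slc38a9 passed after either scaling and not in TPM. The averaged difference of slc38a4 was 0.37 in TPM with an adjusted p of 0.435 and 1.24 after trimmed-mean scaling with an adjusted p of 0.0263, both in limma. For slc1a3a it moved from 0.05 with an adjusted p of 0.867 to 0.93 with an adjusted p of 0.0266. The lysosomal gene slc38a9, whose human product senses arginine for the growth regulator mTORC1, went from 0.18 with an adjusted p of 0.405 to 0.57 with an adjusted p of 0.0229. Its 12 values were all between 0.10 and 1.28 TPM. By contrast, slc7a2, slc38a6 and slc38a10 lost their calls, with adjusted p-values of 0.738, 0.531 and 0.514 after trimmed-mean scaling, and slc38a5b changed sign to 0.03. The averaged calls of slc7a7, slc43a2b, slc7a9, slc38a3b, slc7a8a and slc7a3a were lost as well, with adjusted p-values of 0.0541, 0.0542, 0.0717, 0.0738, 0.0749 and 0.207 in limma after trimmed-mean scaling. The control difference of slc38a3b had an adjusted p of 0.144 after trimmed-mean scaling and 0.191 after quantile normalization. The call of slc38a3a in controls held, with adjusted p-values of 4.77e-05 and 5.73e-05, and so did those of slc43a3b, slc7a10a and SLC7A1.

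**Figure D3:**
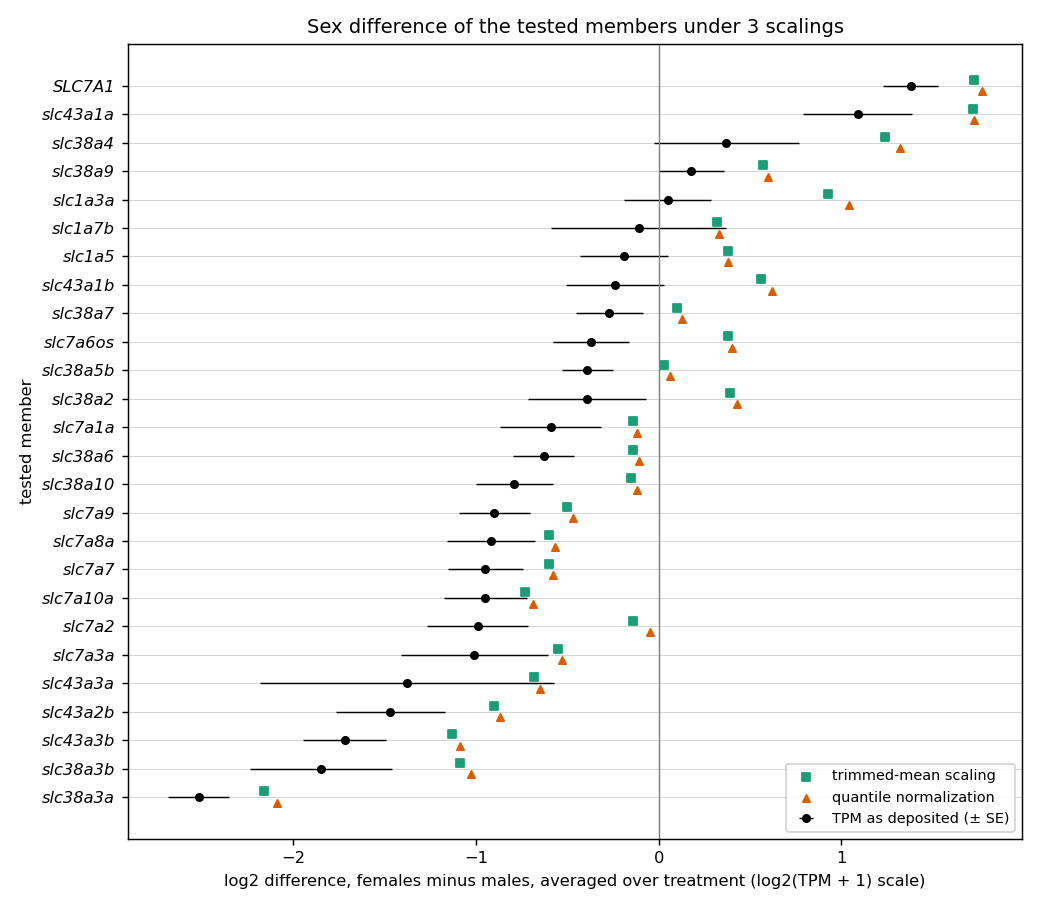
Female minus male difference of the tested transporter genes, averaged over treatment, on the log2(TPM + 1) scale under TPM, trimmed-mean scaling and quantile normalization. Bars on the TPM points are ± SE. Values move to the right after scaling, slc38a3a has the lowest and SLC7A1 the highest TPM difference of the 26 genes, and slc38a5b moves from -0.39 to 0.03 under trimmed-mean scaling.

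Light chains need their heavy chains, so the 3 heavy chain genes were read beside them. slc3a2a, a copy of the 4F2 heavy chain that binds most light chains in humans, had 15.77, 36.70 and 33.78 TPM in male controls and 2.42, 6.07 and 4.01 TPM in female controls. Exposed males had 27.54, 44.39 and 89.87 TPM and exposed females 5.79, 4.36 and 4.04 TPM, with no overlap between the sexes. The difference between control females and control males was -2.50 ± 0.45 with an adjusted p of 0.00475 in limma. The adjusted p was 0.0487 after trimmed-mean scaling and 0.0528 after quantile normalization. Averaged over treatment the slc3a2a difference was -2.8 ± 0.318 with an adjusted p of 9.88e-05 in limma. That call held, with adjusted p-values of 0.0049 after trimmed-mean scaling and 0.00389 after quantile normalization. Summed over the light chain genes, the level was 5.07 ± 0.49 TPM (SD, n = 3) in male controls and 1.38 ± 0.48 TPM in female controls, a sum that was not tested.

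The second copy slc3a2b had 4.23, 1.54 and 5.11 TPM in male controls and 0.37, 1.19 and 2.05 TPM in female controls, and the groups overlapped. Its control difference of -1.05 ± 0.464 did not pass, with an adjusted p of 0.113, and the averaged difference passed at 0.00445 in limma. slc3a1, which encodes the partner of slc7a9 in humans, had 1.78, 0.97 and 2.75 TPM in male controls and 0.61, 0.82 and 0.57 TPM in female controls. Its control difference of -0.72 ± 0.357 had an adjusted p of 0.151, and the averaged one had 0.00527, both in limma. slc3a1 reached 1 TPM in male libraries alone and thus entered the tests only through the sex in which it was high. After trimmed-mean scaling the averaged adjusted p-values of slc3a2b and slc3a1 were 0.0613 and 0.164.

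**Figure D4:**
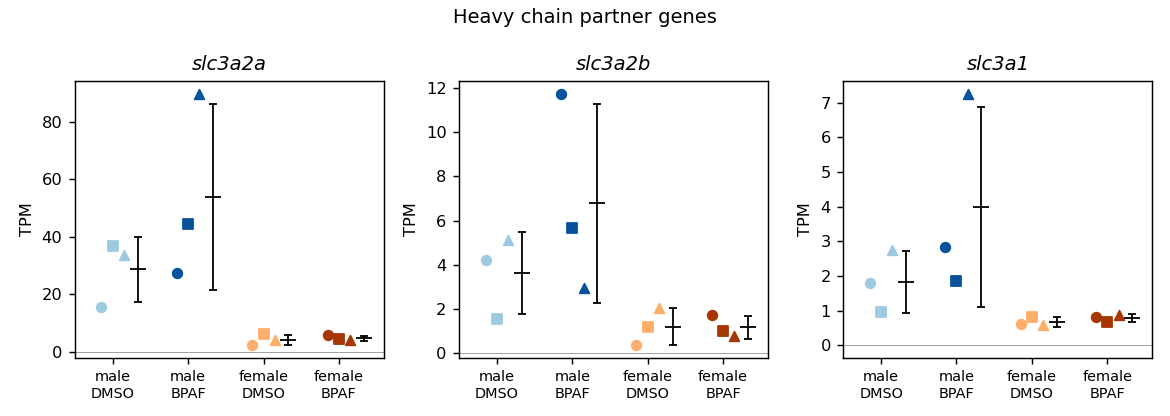
TPM of the 3 heavy chain genes in the 12 libraries, with circles, squares and triangles for libraries 1, 2 and 3 of a group and black bars for the mean ± SD (n = 3). Male libraries of slc3a2a lie between 15.77 and 89.87 TPM and female ones between 2.42 and 6.07 TPM.

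The next comparison asked what BPAF did in males. None of the 26 transporter genes passed in limma, and 4 had an unadjusted p under 0.05. Among all tested genes 0.0527% passed the adjusted threshold and 6.34% had an unadjusted p under 0.05. The gene with the smallest p was the exporter gene slc7a7, with 0.69, 0.85 and 1.08 TPM in controls and 2.68, 1.86 and 3.50 TPM after exposure. Every exposed male was above every control male, and the difference was 0.95 ± 0.289 with an adjusted p of 0.665 in limma. The leucine carrier gene slc43a2b had 2.67, 1.74 and 4.31 TPM in controls and 7.75, 5.91 and 12.27 TPM after exposure, again without overlap. Its difference of 1.30 ± 0.423 had an adjusted p of 0.692 in limma.

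The exchanger gene slc7a8a had 0.71, 0.33 and 1.03 TPM in control males and 2.39, 0.79 and 4.26 TPM in exposed males, where the lowest exposed library lay under the highest control. Its difference of 0.93 ± 0.34 had an adjusted p of 0.692 in limma. Replicate numbers were assumed to pair the male libraries, from correlations in these same data and not from the labels. Those correlations cannot establish pairing, so the values within pairs rest on this assumption. The ratio of exposed to control within numbers 1, 2 and 3 was 3.37, 2.39 and 4.14 for slc7a8a. These ratios were 3.88, 2.19 and 3.24 for slc7a7 and 2.90, 3.40 and 2.85 for slc43a2b. With the replicate number as a block, still 0 of the 26 genes passed.

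Markers of intestine epithelium were read beside these 3 genes. Of 11 markers listed, 10 were found in the deposited table. These 10 summed to 105, 17.8 and 871 TPM in control males and to 287, 139 and 4840 TPM in exposed males. None of them was at 0 throughout either group. The ileal bile acid binding gene fabp6 made up 725.85 TPM of the sum in control male 3 and 4290.48 TPM in exposed male 3. All 8 that were tested had positive differences, with a median of 1.39, and 0 passed in limma. Villin, vil1, which builds the brush border, had ratios of 8.88, 22.1 and 3.91 within the numbered pairs, and exposed male 3 was the highest male for vil1, slc43a2b, slc7a7 and slc7a8a alike. Not every marker rose in each pair. From control male 1 to exposed male 1, mep1a.1 went from 2.91 to 2.61 TPM, fabp6 from 7.03 to 0.85 TPM and anpepb from 5.16 to 4.86 TPM. In pair 2, mep1a.1 went from 0.77 to 0.47 TPM. Leukocyte markers summed to 334, 470 and 545 TPM in control males and 550, 466 and 762 TPM in exposed males, and 10 of the 12 tested had positive differences, with a median of 0.50. Bile duct markers summed to 776, 526 and 713 TPM in control males and 918, 629 and 922 TPM in exposed males, and 5 of the 5 tested had positive differences, with a median of 0.26. None of these markers passed in limma in either list, and over all tested genes the median was 0.24. Exocrine pancreas markers summed to 161, 479 and 698 TPM in control males and 210, 130 and 485 TPM in exposed males. Only 1 of these 15 had a positive difference, with a median of -0.70. Differences were positive for 2 of 10 erythrocyte markers, 2 of 4 stellate and fibroblast markers and 4 of 4 endothelium markers tested. The part of RNA from any of these cells in the transporter values was not tested. A list of testis markers summed to 0.77 to 2.51 TPM in control males and 4.51 to 22.1 TPM in exposed males, and its part was not tested either.

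**Figure D5:**
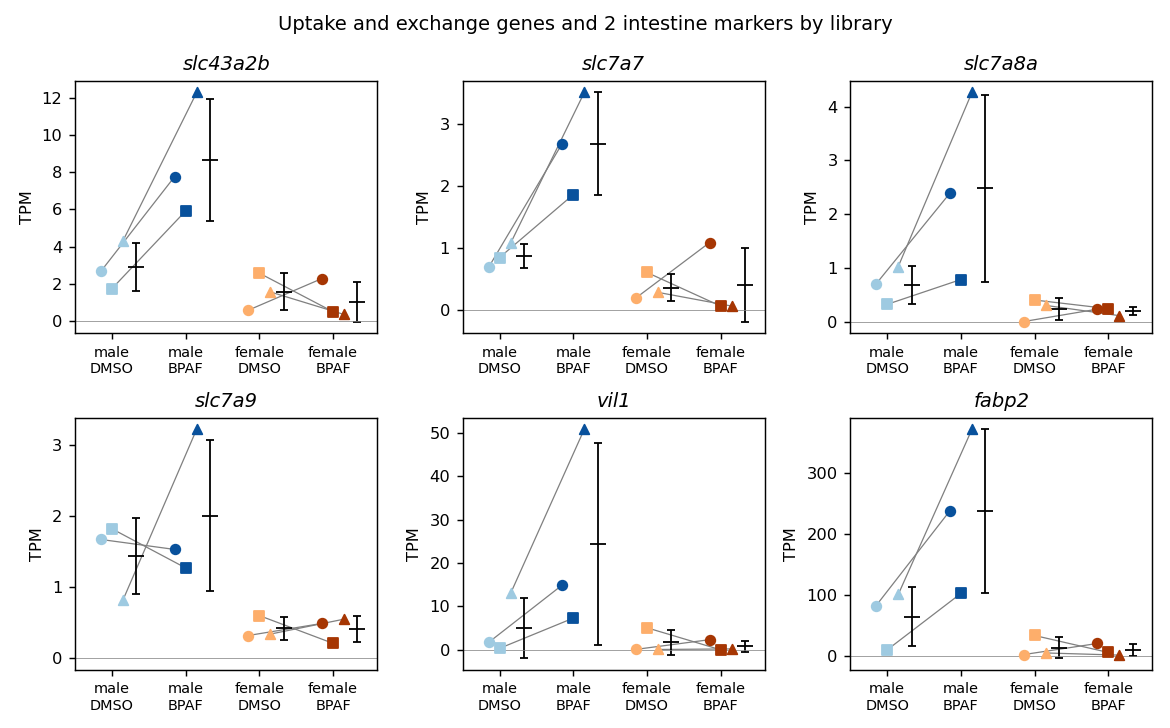
TPM of the transporter genes slc43a2b, slc7a7, slc7a8a and slc7a9 and of the intestine markers vil1 and fabp2, with gray lines joining control and exposed libraries of the same replicate number and black bars for the mean ± SD (n = 3). Lines are drawn in both sexes, although the male numbers were only assumed to pair and the female numbers were not taken to pair. In males the lines of slc43a2b, slc7a7, slc7a8a, vil1 and fabp2 all go up, 1 of the 3 lines of slc7a9 goes up, and exposed male 3 has the highest value in each of these 6 panels. The markers vil1 and fabp2 were picked from the 10 intestine markers found in the deposited table, of which mep1a.1, fabp6 and anpepb, not shown, fell in male pair 1.

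The glutamine carrier gene slc38a3a was lower in the exposed library of each male pair, with ratios of 0.507, 0.80 and 0.637. Its difference of -0.54 ± 0.233 had an adjusted p of 0.759 in limma, and the control range of 4.91 to 8.14 TPM overlapped with the exposed range of 3.13 to 5.15 TPM. slc7a6os, which is no transporter, had the fifth smallest p with a difference of 0.58 ± 0.292 and an adjusted p of 0.789 in limma. Exposed males were without overlap above control males for 4 of the 26 genes, which were slc7a7, slc43a2b, slc38a7 and SLC7A1, against 9.71% of all tested genes, and below them for 0 of the 26, against 0.562%. For SLC7A1 all male values were close to 0, between 0.08 and 0.16 TPM, and the fitted difference was 0.06 ± 0.212. slc38a7, a lysosomal glutamine and asparagine carrier gene in humans, had 0.77, 0.69 and 0.63 TPM in controls and 1.57, 1.16 and 1.16 TPM after exposure. It reached 1 TPM in exposed libraries alone and thus entered the tests only through them, which favours genes that are higher after exposure. In all 3 assumed pairs, 13 of the 26 were higher after exposure and 1 was lower, against 35.0% and 2.97% of all tested genes. The median male difference was 0.28 over the transporter genes and 0.24 over all tested genes, and after trimmed-mean scaling these medians were 0.01 and -0.07.

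In females the corresponding comparison gave 0 of 26 genes past the threshold in limma, and 2 had an unadjusted p under 0.05. Of all tested genes 0.0% passed, and 1.38% had an unadjusted p under 0.05. The smallest p belonged to SLC7A1, whose exposed libraries were all above the controls, with a difference of 0.53 ± 0.212 and an adjusted p of 1.0 in limma. The carrier gene slc43a1b, the second copy of LAT3, had 8.58, 11.26 and 13.80 TPM in control females and 7.52, 7.07 and 3.47 TPM in exposed females. All exposed values were below the controls, and its difference of -0.83 ± 0.379 had an adjusted p of 1.0 in limma. Its paralogue slc43a1a had a positive difference of 0.77 ± 0.421, the exchanger gene slc1a5 of 0.49 ± 0.339, and slc1a7b, a relative of a retinal glutamate carrier in mammals, of -0.88 ± 0.677, each with an adjusted p of 1.0 in limma. Ranges did not overlap for 5 of the 26 genes, with slc43a1a, slc1a5 and SLC7A1 higher and slc43a1b and slc1a3a lower, against 2.35% of all tested genes higher and 2.12% lower. The median difference was -0.03 over the transporter genes and -0.01 over all tested genes.

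The difference between the female and male responses to BPAF was tested directly. It passed for 0 of the 26 genes and for 0.0% of all tested genes in limma, and 3 of the 26 had an unadjusted p under 0.05, against 3.23% of all. slc43a2b stood first with -1.68 ± 0.598, followed by slc7a7 with -0.97 ± 0.409 and slc43a1b with -1.22 ± 0.536, where negative values mean a lower response in females. slc7a8a and slc38a3a came next with -0.96 ± 0.481 and 0.59 ± 0.329. Each of these 5 had an adjusted p of 0.995 in limma, so no sex difference in the response was detectable with 3 libraries a group.

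The 24 genes that were not tested were low in these livers. Of these, slc1a6, slc1a8a, slc1a8b and slc7a14b, were listed at 0 in all libraries. The cystine carrier gene slc7a11, which feeds glutathione synthesis and is induced by stress in mammals, stayed at or below 0.08 TPM and was at 0 in 4 female libraries. The highest single value was 2.83 TPM of slc1a1, a neuronal and epithelial glutamate carrier gene, in exposed male 3. That gene had 0.33, 0.05 and 0.91 TPM in control males, 0.34 and 0.09 TPM in the other exposed males and at most 0.10 TPM in females. Another 3 reached 1 TPM in 1 or 2 libraries, namely slc38a11, slc7a4 and slc43a2a, and the rest stayed under 1 TPM throughout.

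Related gene lists were read against all tested genes, of which 21.2% were lower in control females and 55.4% lower in females averaged over treatment. Of 12 tested genes for further amino acid and peptide transporters, 2 fell in control females. They were the lysosomal cystine exporter gene ctns, at -0.92 with an adjusted p of 0.0169, and the proton-coupled carrier gene slc36a1, at -1.75 with an adjusted p of 0.0235, both in limma. After trimmed-mean scaling these were 0.131 and 0.0634. Averaged over treatment 8 of the 12 were lower and 0 higher in TPM, and 3 were lower and 1 higher after either scaling. Among all tested genes 14.8% were lower and 12.3% higher after trimmed-mean scaling, and 14.1% lower and 13.4% higher after quantile normalization. Of 3 tested mitochondrial carriers 0 passed in either comparison of the sexes.

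Of 14 tested enzymes of glutamine and glutamate metabolism, 3 fell in control females and 0 rose. They were oplah, which makes glutamate from oxoproline, at -1.28, the aminotransferase gene got2b at -1.03 and the glutaminase gene glsb at -0.93, with adjusted p-values of 0.00958, 0.0248 and 0.0437 in limma. After trimmed-mean scaling these were 0.077, 0.316 and 0.0831, and 0 of the 14 passed after either scaling. Among all tested genes 5.01% were lower in control females after trimmed-mean scaling and 3.93% after quantile normalization. The 3 of 14 in TPM compare with 21.2% lower among all tested genes. Of these 3, glsb reached 1 TPM in male libraries alone and thus entered the tests only through the sex in which it was high. Averaged over treatment, 13 of the 14 were lower in TPM, where 55.4% of all were, and 1 after trimmed-mean scaling, where 14.8% of all were. Of 20 tested genes that carry amino acid signals from the lysosome to mTORC1, 7 fell in control females in TPM, where 21.2% of all tested genes did. Among them was lamtor4 at -1.03 with an adjusted p of 0.00728 in limma. In these controls 0 of the 20 passed after either scaling. Averaged over treatment, 13 of the 20 were lower and 0 higher in TPM, where 55.4% of all were lower and 3.94% higher. After trimmed-mean scaling 2 were lower and 2 higher, where 14.8% of all were lower and 12.3% higher. After quantile normalization 1 was lower and 3 were higher, where 14.1% of all were lower and 13.4% higher.

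For genes of the stress response through ATF4, the transcription factor that answers amino acid shortage, calls depended on scaling, as they did over all tested genes. This list held atf4a and atf4b themselves as well. Of 31 tested, 1 fell in control females, the serine synthesis gene psph at -0.89 with an adjusted p of 0.0275 in limma, against 21.2% lower among all tested genes. Its adjusted p was 0.459 after trimmed-mean scaling and 0.578 after quantile normalization. In the same controls 3 of the 31 were higher and 0 lower after trimmed-mean scaling, where 3.79% of all tested genes were higher and 5.01% lower. After quantile normalization 4 were higher and 0 lower, where 4.23% of all were higher and 3.93% lower. Averaged over treatment, 9 were lower and 2 higher in TPM, where 55.4% of all were lower and 3.94% higher. After trimmed-mean scaling 1 was lower and 8 were higher, where 14.8% of all tested genes were lower and 12.3% higher. Among these same lists, 0 genes passed for BPAF in males or in females in limma. The medians of the male BPAF differences were 0.29 for ATF4 genes, 0.25 for glutamine and glutamate enzymes and 0.35 for mTORC1 genes, near the 0.24 of all tested genes, and 0.71 for the 3 heavy chains. Among males, slc3a2a and slc3a1 were highest in exposed male 3, at 89.87 and 7.26 TPM. In that library slc3a2b was at 2.94 TPM, against 5.11 TPM in control male 3. Intestine markers summed to 4840 TPM there, of which fabp6 made up 4290.48 TPM. Sums of leukocyte, bile duct, and stellate and fibroblast markers were also the highest among males there, at 762, 922 and 63.2 TPM, and those of the other marker lists were not. The part of RNA from any of these cells in these values was not tested.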

How the data were processed

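Liver RNA of 12 zebrafish libraries was sequenced, in 4 groups of 3 by sex and treatment. The authors deposited 1 table of 32520 genes with values taken as TPM, scaled by the authors for gene length and library total. This unit was inferred from the column sums and the tools, since the header names none. Per the submitters' processing notes the tools include RSEM, Cufflinks and HISAT2 2.1.0, with no role stated. The build and annotation were not given in the sources used here. No coordinates or sequences were used. The authors' 4 columns of group means were left out, and 0 columns lacked a sample or group. TPM keep no depth, so neither intervals nor floors were computed.

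Tests used limma 3.58.1 in R 4.3.3 on log2(TPM + 1) in a model with 1 mean per group (8 residual degrees of freedom, variance trend), after a filter of 1 TPM in at least 3 libraries, with Benjamini-Hochberg adjustment over 11389 genes and a threshold of 0.05. Fold changes on this scale understate those of low genes. The script was tested on simulated data. There were 5 contrasts, namely BPAF in males, BPAF in females, their difference, and females against males in controls and averaged over treatment. Alternatives were other scalings, pseudocounts and filters, a replicate block, a fit of only the libraries compared, and leaving out each library.

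The replicate numbers of the labels were checked by correlating deviations from the group means. In males the 3 same-numbered pairs gave 0.327, 0.347 and 0.376, and pairs of different numbers gave -0.235 to -0.12. Deviations from a group mean cancel out within the group, so positive same-numbered values force lower values for different numbers. The contrast is thus largely a single finding. The 3 numbers of a group can also be matched in only a few ways, so the check cannot establish pairing. The numbers were taken to pair control and exposed males as an assumption, which the labels do not state. In females same-numbered pairs gave 0.226, 0.0526 and 0.104 and pairs of different numbers gave -0.277 to 0.224. The female numbers were not taken to pair.

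The genes named are those called in any contrast, the 5 with the smallest p in each BPAF contrast and in the interaction, the 10 with the highest mean level, slc38a3a, slc38a3b, slc38a9 and slc7a11, the heavy chains and up to 4 called genes of a related list. slc38a7 and the gene slc1a1 with its values were named after their values were seen, as were the untested genes besides slc7a11. The members and lists were chosen with earlier results of these data known. Of the 50 symbols, 49 were found in a gene name table by identifier.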

Additional observations from a re-analysis of the deposited data

How the results depend on the processing

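For BPAF in males, BPAF in females and their difference, the count of transporter genes called was 0 in every alternative, the replicate block and each left-out library included. For control females against control males the count was 5 with the replicate block as without it. It fell to 3 with a filter at 5 TPM, and ranged from 3 to 6 when 1 library was left out, with 3 without female control 1. Averaged over treatment the count of 15 was the same with the replicate block. It became 8 after trimmed-mean scaling, 9 after quantile normalization and 5 with a filter at 5 TPM, which tests fewer genes, and ranged from 11 to 15 when 1 library was left out. The averaged call of slc38a5b was lost without each of male control 1, 2 or 3, exposed male 1 or 2, female control 2, or exposed female 2 or 3 (adjusted p 0.0509 to 0.0804 in limma), and that of slc7a3a without any 1 female library (0.0565 to 0.09). Signs turned for slc38a5b, at 0.03 after trimmed-mean scaling and 0.06 after quantile normalization against -0.39, and for slc1a3a, at -0.18 without male control 2 against 0.05, with a range of -0.18 to 0.2 when 1 library was left out. Over 712 alternatives of 38 named values, 661 kept direction and side of the threshold, 42 lost their call, 6 gained one and 3 turned sign. The replicate block within each sex was added after seeing the data and also gave 0 calls for BPAF. TPM hold no depth, which limits what can be said of genes near 0.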

Other observations

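Among the low genes, slc38a11 and slc7a4 had their highest values in the same library, exposed female 1. There slc38a11 was at 1.91 TPM and slc7a4 at 1.40 TPM. The other 11 libraries lay at or below 0.50 TPM for slc38a11 and at or below 0.18 TPM for slc7a4. Exposed female 1 also had the highest ovary and germ cell sum, 153 TPM. The value of 0.50 TPM was in control female 1, where that sum was 121 TPM, and that of 0.18 TPM in exposed male 3. The part of such cells was not tested.

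The nucleobase carrier genes slc43a3a and slc43a3b differed in their spread. In males slc43a3b lay between 3.74 and 7.23 TPM, while slc43a3a lay between 0.31 and 34.28 TPM.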
